A study of Mus musculus with 8 samples.

Results

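A set of 10 genes of the unfolded protein response were followed in pancreatic islets of mice labelled as Wfs1 knockouts: the sensor genes Ern1, Ern2, Atf6 and Atf6b, the transcription factor gene Xbp1, the ATF6-like factor genes Creb3, Creb3l1 and Creb3l2, and the protease genes Mbtps1 and Mbtps2. They were taken by symbol from a table of 24537 genes, and all 10 members were found and passed the filter on low counts. Male mice aged 12 weeks gave the islets, with 4 WT and 4 Wfs1KO samples, the second group labelled as a knockout of Wfs1, with no treatment named for either group. Islets had been freed with collagenase and purified on a density gradient, and polyadenylated RNA was sequenced. The strain, the design of the knockout allele and whether a sample came from 1 mouse or from several are not given in the sources used here.

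The endoplasmic reticulum (ER) signals a load of unfolded protein through membrane sensors. IRE1, encoded by Ern1 and in mucous epithelia also by Ern2, is a kinase and ribonuclease that cuts Xbp1 RNA so that it can be rejoined without a short intron and translated into an active transcription factor. ATF6 instead travels to the Golgi, where Site-1 protease (Mbtps1) and then Site-2 protease (Mbtps2) cut it and release its transcription factor portion, and the CREB3 family is released in the same way. Beta cells make large amounts of proinsulin in the ER, and wolframin, the ER membrane protein encoded by Wfs1, has been reported to bind ATF6 and promote its degradation.

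Wfs1 served as a check of the labels and stood lower in all 4 Wfs1KO libraries, at 182, 156, 190.1 and 188 CPM (counts scaled to a common library size by TMM) in WT and 101.1, 105, 125 and 98.9 CPM in Wfs1KO. Its fold change was 0.599, so reads of the gene were still counted in the knockout. Exon counts per library ran from 15810830 to 27057617. Replicates 1 and 2 parted from 3 and 4 on the first principal component (37.9% of variance) in both genotypes, and the labels do not say what this split is. Endocrine markers summed to between 202382 and 251447 CPM in WT and between 146173 and 176118 CPM in Wfs1KO, with none of the 10 at 0. Of these 10 markers 4 fell (Ins1, Ins2, Pcsk1 and Slc30a8), 2 rose (Iapp and Sst) and 4 did not pass. That is 40% lower and 20% higher, against 8.49% and 10.4% of all tested genes. Most of the difference between the sums lay in Ins1 and Ins2, at 38988 and 114882 CPM in WT and 29315 and 66259 CPM in Wfs1KO. Of 8 endothelial markers 8 rose (summed level 517 to 591 CPM in WT, 699 to 826 CPM in Wfs1KO), and of 8 stellate and fibroblast markers 2 rose (176 to 265 and 305 to 359.7 CPM). Those are 100% and 25% of the markers, against 10.4% of all tested genes that rose. None of 10 acinar markers passed, and their sum varied widely, from 30343 to 68421 CPM in WT and from 9352 to 63841 CPM in Wfs1KO. No macrophage or plasma cell marker passed. In bulk tissue, fewer cells of a type and less RNA per cell cannot be told apart, and the part of the endothelial and stellate RNA in the results was not tested.

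The sequence on which this pathway turns is the stretch of Xbp1 RNA that IRE1 removes, shown here because the count table does not resolve it. IRE1 cuts inside small loops of the form CNGCNGN. The transcript Xbp1-201 (GENCODE M21, GRCm38, plus strand of chromosome 11), read on its own strand only, held 23 matches to this form, and 2 pairs of them lay exactly 26 bases apart, 1 in exon 1 and 1 in exon 4 of 5. The pair in exon 4 is the known IRE1 site, with the removed bases in capitals.
Xbp1 exon 4, chr11:5524272-5524311: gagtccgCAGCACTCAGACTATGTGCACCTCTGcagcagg
With these 26 bases the reading frame that opens at base 337 of the transcript runs for 267 codons, and without them for 371 codons. Both forms fall into 1 count for the gene, so every Xbp1 value below is total RNA.

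The next sequences are the DNA element through which ATF6 is known to act, the ER stress element (ERSE, CCAAT and CCACG with 9 bases between them, searched on both strands), shown because all 12 of the ATF6 targets described below rose. Capitals mark the fixed bases, and each is written in the direction of the motif, in GRCm38 coordinates with the strand on which the motif reads this way.
Xbp1, chr11:5520906-5520924, plus strand: CCAATcgcggacggCCACG
Hspa5, chr2:34772025-34772043, plus strand: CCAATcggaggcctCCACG
Calr, chr8:84847075-84847093, plus strand: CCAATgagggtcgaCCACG
Hsp90b1, chr10:86705638-86705656, minus strand: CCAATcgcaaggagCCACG
Hsp90b1, chr10:86705533-86705551, plus strand: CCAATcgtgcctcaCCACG
Pdia6, chr12:17266491-17266509, plus strand: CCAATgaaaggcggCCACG
Creld2, chr15:88819520-88819538, minus strand: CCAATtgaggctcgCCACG
In the RefSeq promoter windows (GRCm38.p6, 250 bases before to 50 after each start), 0.137% of 27025 genes held this motif, as did 5 of the 10 genes with a window in the list of ATF6 targets described below and 2 of the 12 with a window among XBP1 targets (Dnajc3 and Syvn1). ERSE-II (ATTGG and CCACG with 1 base between them, both strands) was found in Herpud1 and Dnajb11 of that list and in 0.044% of all genes. Windows were found for 7 members, namely Ern1, Atf6b, Xbp1, Creb3, Creb3l2, Mbtps1 and Mbtps2, and none of them held ERSE, ERSE-II, the core of the unfolded protein response element (TGACGTGG, both strands, in 0.714% of genes and in Sec24d among the XBP1 targets) or the cyclic AMP response element (TGACGTCA, its own reverse complement, in 2.03% of genes). The Xbp1 match lies 265 bases after the RefSeq start, in the part of exon 1 before the start codon and beyond the window. These matches are a description of letters and not of binding. The motif and the target list both rest on what was already known of ATF6, so their shares are no independent test.

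Across the 10 members the changes were small. Atf6, Creb3, Creb3l1 and Mbtps2 rose in Wfs1KO islets, between 1.16-fold and 1.38-fold, none fell, and 6 did not pass. Called here means an adjusted p under 0.05 in edgeR's quasi-likelihood test, and over all 15733 tested genes 18.9% were called, 10.4% as higher and 8.49% as lower. That was 1635 genes higher and 1335 lower, and scaling by total exon counts in place of TMM gave 3171 and 708, with the median of all genes moved to 0.11 on the log2 scale. The median log2 fold change of the members was 0.15, and that of all tested genes was 0.01. The same 4 members were those whose groups did not overlap, against 22.6% of all tested genes (12.3% higher and 10.3% lower).

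**Figure D1:**
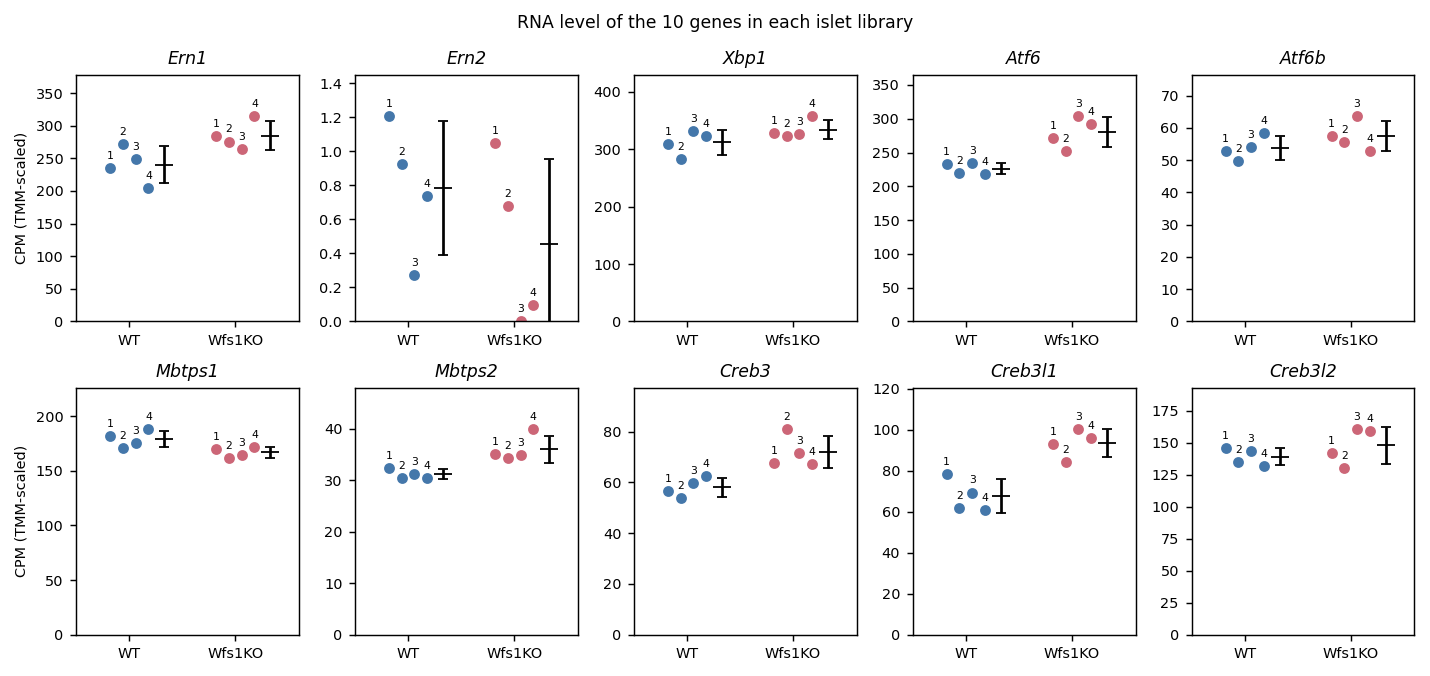
RNA level of each of the 10 genes in CPM (vertical axes, from 0) in the 4 WT (blue) and 4 Wfs1KO (red) libraries, numbered by replicate, with the mean and SD of each genotype in black (the SD bar of Ern2 in Wfs1KO is clipped at 0). For Atf6, Mbtps2, Creb3 and Creb3l1 every red point lies above every blue one, while Xbp1, Atf6b and Creb3l2 overlap.

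Ern1, the IRE1 gene of most tissues (chromosome 11, 106397620 to 106487796, minus strand, mm10), was measured with 3693 to 8129 counts per library. In the order of replicates 1 to 4, WT libraries held 235, 272, 249 and 204 CPM and Wfs1KO libraries 285, 276, 264 and 315 CPM. Wfs1KO replicate 3 lay below WT replicate 2, and the other 3 Wfs1KO libraries lay above every WT library. The log2 fold change was 0.25 (SE 0.08, 95% interval 0.07 to 0.43) with an adjusted p of 0.0557, just over the threshold, so Ern1 is not counted as changed. This call turned on the method and on 1 library. The adjusted p was 0.0266 with DESeq2, 0.0366 with limma-voom, 0.0171 without WT replicate 2 and 0.104 with the replicate number as a block. Ern1 passed in 7 of 20 alternatives, and with 1 library left out the adjusted p ran from 0.0171 to 0.152. The change was 0.13 within replicates 1 and 2 (adjusted p = 0.359) and 0.35 within replicates 3 and 4 (adjusted p = 0.111). The authors' deposited table gives Ern1 a log2 fold change of 0.23 with 0.0264 as adjusted p.

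Ern2, the IRE1 gene of gut and airway mucous cells (chromosome 7, 122169893 to 122186231), was barely present. Counts were 23, 16, 4 and 15 in WT and 30, 14, 0 and 2 in Wfs1KO, or 1.21, 0.924, 0.270 and 0.736 CPM against 1.05, 0.677, 0 and 0.0990 CPM. The count of 0 in Wfs1KO replicate 3 allows a level of up to 0.173 CPM, counting error only. Its log2 fold change of -0.70 had a 95% interval from -2.39 to 0.98 (adjusted p = 0.598), so no direction could be told. It was -1.54 without Wfs1KO replicate 1, and -0.36, -0.40 and -0.43 without Wfs1KO replicate 3, Wfs1KO replicate 4 and WT replicate 1. Wfs1KO replicate 3 was the lowest of its genotype in both Ern2 and Ern1. Markers of goblet and mucous epithelium were also scarce, with 4 of 6 under 1 CPM in every library. Their sum ran from 3.53 to 5.94 CPM in WT and from 0.923 to 3.54 CPM in Wfs1KO. It was lowest in Wfs1KO replicate 3, but in WT it was highest in replicate 3, which held the fewest Ern2 counts of WT. Wfs1KO replicates 2 and 4 had sums of 2.76 and 2.72 CPM with Ern2 counts of 14 and 2. The part of such cells in the Ern2 values was not tested.

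Xbp1, the substrate of IRE1 (chromosome 11, 5520641 to 5525993, plus strand), was the most abundant member. It stood at 309, 283, 332 and 323 CPM in WT and 327, 323, 327 and 358 CPM in Wfs1KO. Of the Wfs1KO libraries 3 lay within the WT range, and only replicate 4 lay above it. That library also had the highest acinar marker sum of its genotype, 63841 CPM, and acinar cells are known for high Xbp1. Wfs1KO replicate 3 had the lowest sum, 9352 CPM, yet its Xbp1 level was close to those of replicates 1 and 2, with sums of 27174 and 27170 CPM. In WT, replicate 3 was highest and replicate 2 lowest in both Xbp1 and the acinar sum. The part of acinar cells in the value of Wfs1KO replicate 4 was not tested. The change in Xbp1 was 0.10 on the log2 scale (SE 0.06, 95% interval -0.04 to 0.24, adjusted p = 0.318), so the interval leaves out a rise of total Xbp1 RNA as large as the 0.59 of the chaperone gene Hspa5. Scaling by total exon counts gave Xbp1 0.20 (adjusted p = 0.0112), or 0.09 above that median. With an acinar covariate in the edgeR fit the change was 0.14 (adjusted p = 0.206).

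Downstream of Xbp1, known XBP1 targets rose nearly as a block. Of 16 members, 14 rose, none fell and 2 did not pass (87.5% higher, against 10.4% of all tested genes), with a median log2 fold change of 0.45. Many are also reached by other arms of the response. Ssr3, a subunit of the complex beside the translocon, rose from 291 ± 20.1 to 483 ± 32.0 CPM (SD, n = 4 each), or by 0.73 on the log2 scale. Dnajc3, an ER co-chaperone, rose by 0.66, and Erp44, which retains client proteins in the early secretory pathway, by 0.48. Dnajc10 (0.17, adjusted p = 0.114) and Derl2 (0.04, adjusted p = 0.722), named after their values were seen, did not pass, although Derl2 belongs to the same degradation family as Derl1. The list overlaps groups described from these libraries before and is not independent evidence of direction.

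Among RNAs that IRE1 is known to cut in other cells, the substrates of IRE1-dependent decay, none was called lower. Of 8, only Pdgfrb passed, and it was higher (0.54, SE 0.09, adjusted p = 6.68e-04). That is 12.5% of the list, near the 10.4% of all tested genes called higher, and the list median was 0.25. Bloc1s1, the best known of these substrates, is scarce here at 6.30 CPM in WT and 5.85 CPM in Wfs1KO (-0.10 on the log2 scale, SE 0.17, adjusted p = 0.733), shares 55.9% of its exon bases with Rdh5 on the same strand, and was named after its value was seen. Pdgfrb, Sparc and Col6a1 are also genes of stellate cells and pericytes, and Pdgfrb is itself 1 of the 8 markers summed for those cells. Most of the difference in that sum lay in Rgs5, at 135 CPM in WT and 219 CPM in Wfs1KO. Without WT replicate 4 the count that rose was 4 of 8, with 1460 of all 15984 tested genes higher in that fit.

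Of 9 genes for the partners of IRE1 and for the tRNA ligase that rejoins Xbp1, 2 rose (22.2%, against 10.4% of all tested genes), 2 fell (22.2%, against 8.49%) and 5 did not pass (median -0.02). With 1 library left out, between 1 and 3 of the 9 passed. Rtcb, the ligase itself, stood at 119.6 ± 4.08 CPM in WT and 119 ± 5.38 CPM in Wfs1KO, or -0.01 on the log2 scale (SE 0.05), and Ddx1 of the same complex at -0.03, both named after their values were seen. Rtraf, another subunit, rose by 0.23, and Tmbim6, which encodes the IRE1 inhibitor BI-1, by 0.21. Ptpn1, a phosphatase linked to IRE1 signalling, fell by 0.24 on the log2 scale (adjusted p = 0.00779), and Map3k5, the kinase ASK1 that IRE1 recruits through TRAF2, fell by 0.20 and was named after its value was seen. With scaling by total exon counts neither fall passed (adjusted p = 0.109 and 0.232). Rtraf no longer passed when WT replicate 2, 3 or 4 or Wfs1KO replicate 2 or 4 was left out (0.0534 to 0.0676), and its exons share 22.7% of their bases with Nid2 on the other strand. The same held for Tmbim6 when WT replicate 1 or 2 or any 1 Wfs1KO library was left out (0.0570 to 0.0932), and for Map3k5 with WT replicate 3 or 4 or Wfs1KO replicate 1, 2 or 3 left out (0.0540 to 0.130).

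Atf6 (chromosome 1, 170704457 to 170867771, minus strand) encodes the main sensor of the ATF6 arm and rose. It stood at 233, 219.7, 234 and 219 CPM in WT and 272, 253, 305 and 292 CPM in Wfs1KO. The lowest Wfs1KO library lay above the highest WT library. The WT libraries were close together, with a coefficient of variation of 3.66%, and the Wfs1KO libraries were more spread, at 8.10%. Atf6 rose 1.24-fold, or by 0.31 on the log2 scale (SE 0.06, 95% interval 0.17 to 0.45, adjusted p = 0.00388). Within replicates 1 and 2 it was 0.19 (adjusted p = 0.110), and within replicates 3 and 4 it was 0.39 (adjusted p = 0.00400).

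Atf6b, whose product shares the design of ATF6 but is a weaker activator (chromosome 17, 34647146 to 34655074, plus strand), did not pass. It stood at 52.7, 49.6, 54.0 and 58.5 CPM in WT and 57.5, 55.6, 63.8 and 52.9 CPM in Wfs1KO, with only Wfs1KO replicate 3 above the WT range. The log2 fold change was 0.09 (SE 0.07, 95% interval -0.05 to 0.24, adjusted p = 0.385). The difference between the paralogs was tested by itself on the ratio of their counts within each library, which no scaling of libraries can change. Atf6 had 4.41, 4.43, 4.33 and 3.74 counts for each count of Atf6b in WT and 4.73, 4.55, 4.78 and 5.51 in Wfs1KO. All 4 Wfs1KO ratios lay above all 4 WT ratios, and the means differed by 0.21 on the log2 scale (two-sided exact permutation p = 0.0286, the smallest that 4 against 4 allows, and 0.0381 adjusted over 4 pairs of genes). Without WT replicate 4 the difference was 0.15.

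Every listed target of ATF6 rose. Of 12 genes, 12 rose (100%, against 10.4% of all tested genes), each by at least 0.42 on the log2 scale, with a median of 0.58 and no overlap between genotypes in any of the 12. Sdf2l1, an ER co-chaperone, doubled from 59.4 ± 4.42 to 119 ± 6.31 CPM. Creld2, an ER protein with disulfide isomerase-like activity, rose by 0.67 (adjusted p = 2.42e-06), and Pdia6, a protein disulfide isomerase, by 0.62. Hspa5, the chaperone BiP that holds the sensors inactive, named here after its value was seen, rose by 0.59. The log2 fold changes of the targets were thus all above the 0.31 of Atf6 itself, a difference in point values that was not tested. Several of these genes were already known to be higher in these libraries, so the list supports no direction by itself. Herpud1 of this list also stands among the CREB3 family targets, so the list does not belong to ATF6 alone. Xbp1, whose ERSE match is shown above, is not in the list and did not pass (0.10, adjusted p = 0.318).

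Of 4 genes for proteins that act on ATF6, 2 rose (50%, against 10.4% of all tested genes) and 1 did not pass. The other, Wfs1, fell (25%, against 8.49%), but it is the gene labelled as knocked out. Its fall is thus no result about the list. Pdia5, a disulfide isomerase needed for ATF6 to leave the ER, rose from 35.3 ± 2.49 to 46.2 ± 2.75 CPM (log2 fold change 0.39, SE 0.07, adjusted p = 0.00101). Nucb1, which restrains the cleavage of ATF6 by Site-1 protease, rose by 0.35. Txndc12, an ER thioredoxin that also binds ATF6, stood at 0.13 (adjusted p = 0.176) and was named after its value was seen.

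Of the protease genes, Mbtps2 rose and Mbtps1 did not pass. Mbtps1, the Site-1 protease gene (chromosome 8, 119508152 to 119558761, minus strand), stood at 182, 171, 176 and 188 CPM in WT and 169.9, 161, 165 and 172 CPM in Wfs1KO. Of the Wfs1KO libraries 3 lay below the WT range and replicate 4 lay inside it. The log2 fold change was -0.10 (SE 0.05, 95% interval -0.21 to 0.01, adjusted p = 0.194). Mbtps2, the Site-2 protease gene (chromosome X, 157547822 to 157598715, minus strand), stood at 32.4, 30.5, 31.3 and 30.4 CPM in WT and 35.1, 34.3, 34.8 and 39.9 CPM in Wfs1KO. All 4 Wfs1KO libraries lay above the WT range, with replicate 4 apart from the others.

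Mbtps2 rose by 0.21 on the log2 scale (SE 0.06, 95% interval 0.07 to 0.35, adjusted p = 0.0314). It no longer passed when WT replicate 2, 3 or 4 or Wfs1KO replicate 1, 3 or 4 was left out (0.0513 to 0.113). Nor did it pass with DESeq2 (0.0647), with no filter (0.0566), or in replicates 1 and 2 (0.403) or 3 and 4 (0.0757) alone. Mbtps2 passed in 10 of 20 alternatives. Without Wfs1KO replicate 4 the change was 0.15. The authors' deposited table gives Mbtps2 a log2 fold change of 0.19 and an adjusted p of 0.0626. In GENCODE M21 its exons share 28.4% of their bases with Yy2, a gene on the same strand. These exons span 10105 bases, against 4786 in the counted RefSeq entry. Whether reads of Yy2 were counted for Mbtps2 was not tested.

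The balance of the proteases was tested on its own. Mbtps1 had 5.61, 5.61, 5.62 and 6.19 counts for each count of Mbtps2 in WT and 4.84, 4.70, 4.73 and 4.31 in Wfs1KO. No Wfs1KO library came within the WT range. On the log2 scale the WT ratio averaged 2.52 ± 0.0711 and the Wfs1KO ratio 2.21 ± 0.0740 (SD, n = 4 each), a difference of -0.31 (two-sided exact permutation p = 0.0286, adjusted p = 0.0381).

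The proteases also release the SREBP factors, which control sterol and lipid genes. Of 8 genes of this branch and of further Site-1 clients, none rose, 2 fell (25%, against 8.49% of all tested genes) and 6 did not pass (median -0.04). Srebf1, which encodes the SREBP1 transcription factors, held 110.7, 109, 129 and 125 CPM in the WT libraries and 95.9, 92.2, 93.1 and 92.5 CPM in the Wfs1KO libraries, or -0.34 on the log2 scale (SE 0.06, adjusted p = 0.00134). Srebf2, of the sterol-regulated SREBP2, fell by 0.36 (adjusted p = 0.00220). Every Wfs1KO library lay below every WT library for both genes. For Atf6, Creb3 and Creb3l1, whose products are released by the same cuts, every Wfs1KO library lay above. The genotypes overlapped for Atf6b and Creb3l2, whose products are of the same families, and for Creb3l3, Creb3l4 and Gnptab of this list. The rise thus did not extend to all clients of these proteases.

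**Figure D2:**
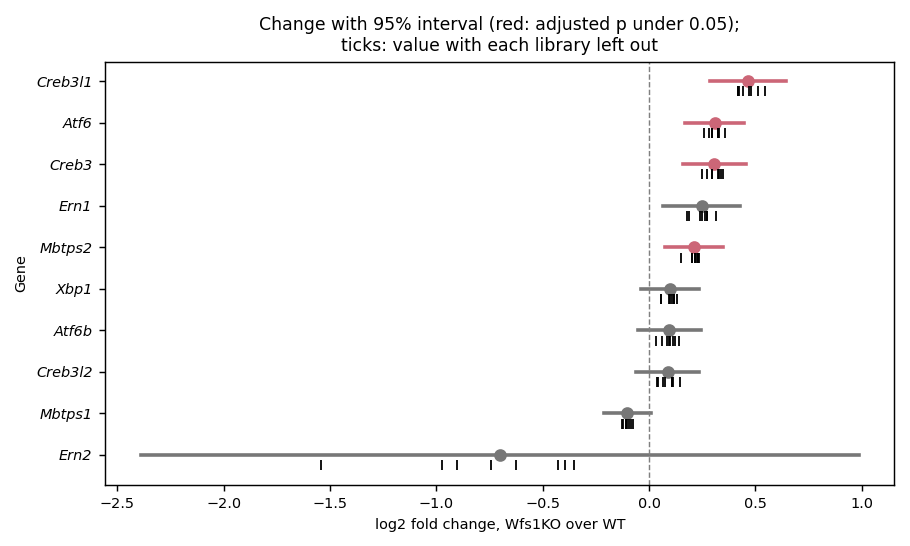
log2 fold change of each gene, Wfs1KO over WT (horizontal axis), with its 95% interval, genes with an adjusted p under 0.05 in red and the others in grey, and the value with each library left out as black ticks. Creb3l1 (0.46), Atf6 (0.31), Creb3 (0.31) and Mbtps2 (0.21) are red, Ern1 (0.25) is grey, and the interval of Ern2 spans both directions.

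The CREB3 family held the largest rise among the members. Creb3l1, which encodes OASIS, an ER-bound factor best known from bone and collagen-secreting cells (chromosome 2, 91982328 to 92024170, minus strand), stood at 78.4, 61.8, 69.4 and 60.9 CPM in WT. In Wfs1KO it stood at 93.0, 84.1, 100.3 and 95.9 CPM, all above the WT range. Creb3l1 rose 1.38-fold, or by 0.46 on the log2 scale (SE 0.08, 95% interval 0.29 to 0.64, adjusted p = 0.00151). It was 0.32 within replicates 1 and 2 (adjusted p = 0.0331) and 0.59 within replicates 3 and 4 (adjusted p = 6.61e-04), and it passed under all 20 alternatives run. Fibroblasts express Creb3l1 too. Of the 8 stellate and fibroblast markers, Rgs5 (0.70) and Pdgfrb (0.54) rose on the log2 scale. The other 6 did not pass, with Dcn at 1.92, Lum at 0.98, Pdgfra at 0.91, Col1a2 at 0.09, Col3a1 at -0.05 and Col1a1 at -0.16, and the list median was 0.62. The part of these cells in the Creb3l1 values was not tested.

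Creb3, which encodes Luman (chromosome 4, 43562634 to 43567060, plus strand), rose as well. It stood at 56.6, 53.7, 59.6 and 62.5 CPM in WT and 67.7, 81.1, 71.7 and 67.3 CPM in Wfs1KO, with Wfs1KO replicate 2 the highest. The log2 fold change was 0.31 (SE 0.07, 95% interval 0.16 to 0.46, adjusted p = 0.00687). In point values the order of the replicate pairs was the reverse of that of Atf6 and Creb3l1. It was 0.41 within replicates 1 and 2 (adjusted p = 0.00244) and 0.18 within replicates 3 and 4 (adjusted p = 0.148). These splits were chosen after the data were seen, and the difference between the pairs was not tested for any member. In GENCODE M21, 15.2% of the exon bases of Creb3 are shared with Tln1 and 5.61% with Gba2, both on the other strand, and the counting used no strand option.

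Creb3l2, which encodes BBF2H7, a regulator of vesicle coat genes in cartilage (chromosome 6, 37331021 to 37442148, minus strand), did not pass. It stood at 146, 135, 144 and 132 CPM in WT. In Wfs1KO replicates 1 and 2 it stood at 142 and 130.4 CPM and in replicates 3 and 4 at 161 and 159 CPM, so the first pair lay within or below the WT range and the second above it. The log2 fold change was 0.09 (SE 0.07, 95% interval -0.06 to 0.24, adjusted p = 0.434). The remaining family genes, Creb3l3 and Creb3l4, had at most 40 and 14 counts in any library.

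Within the family the balance of Creb3l1 to Creb3l2 shifted. Creb3l1 had 0.537, 0.457, 0.482 and 0.461 counts for each count of Creb3l2 in WT and 0.654, 0.645, 0.624 and 0.603 in Wfs1KO, with no overlap. The difference was 0.39 on the log2 scale (two-sided exact permutation p = 0.0286, adjusted p = 0.0381). The ratio of Creb3 to Creb3l2 overlapped between genotypes, with a difference of 0.22 (exact permutation p = 0.114, adjusted p = 0.114). Ern1 to Ern2 was compared by its values only and not tested, because Ern2 fell under 10 counts in 3 libraries.

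**Figure D3:**
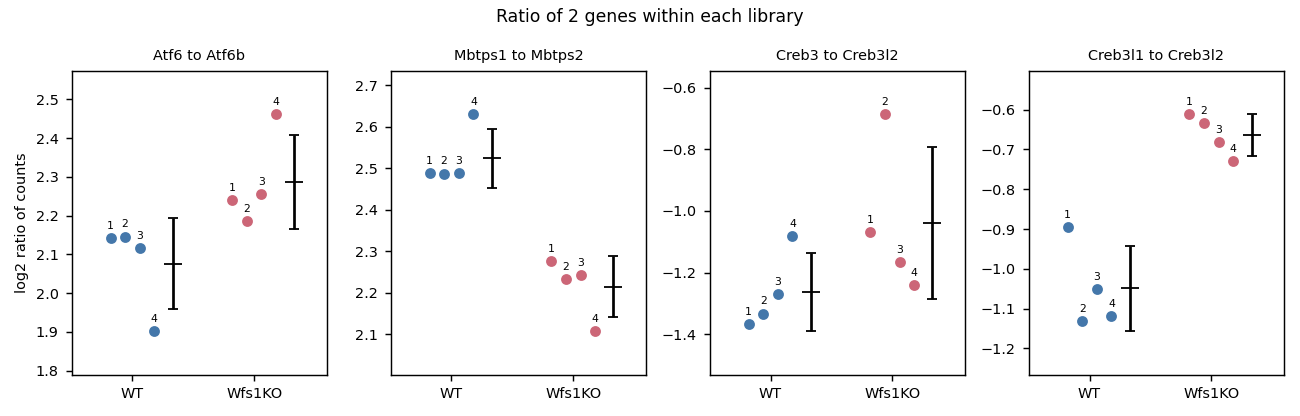
log2 ratio of the counts of 2 genes within each library (vertical axes, each with its own range), for 4 WT (blue) and 4 Wfs1KO (red) libraries numbered by replicate, with mean and SD in black. The genotypes do not overlap for Atf6 to Atf6b, Mbtps1 to Mbtps2 and Creb3l1 to Creb3l2, and they overlap for Creb3 to Creb3l2.

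Of 5 genes known as targets of the CREB3 family, 3 rose and 2 did not pass (60% higher, against 10.4% of all tested genes, median 0.32). Arf4, a small GTPase of the Golgi that CREB3 induces, rose from 174 ± 9.61 to 225 ± 15.2 CPM (log2 fold change 0.37, adjusted p = 9.50e-04), and 14.6% of its exon bases are shared with Pde12 on the other strand. Herpud1, of ER-associated degradation, rose by 0.57. Sec24d, a coat protein of vesicles leaving the ER, rose by 0.32, but not without Wfs1KO replicate 3 or 4 (adjusted p 0.0623 and 0.0645). Its partner Sec23a (0.09, adjusted p = 0.242) and the collagen gene Col1a1 (-0.16, adjusted p = 0.851), named after their values were seen, did not pass. Col1a1 turned to 0.39 without WT replicate 4. Herpud1 and Sec24d also stand in the lists of ATF6 and XBP1 targets.

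The third sensor lies outside these 10 genes, and its values are given for comparison. Eif2ak3, which encodes PERK, stood at 115, 90.5, 110.0 and 105 CPM in WT and 126, 129, 159 and 149 CPM in Wfs1KO, and rose by 0.42 (SE 0.09, adjusted p = 0.00584); 8.05% of its exon bases are shared with Gm43292 on the other strand. Among the 4 genes of its arm 3 rose (75%, against 10.4% of all tested genes). Ddit3 (0.77, adjusted p = 0.0592), named after its value was seen, did not pass. It did pass in 7 of 20 alternatives, among them DESeq2 (adjusted p = 0.00853), limma-voom (0.0444), the replicate number as a block (0.0379) and the fit without WT replicate 4 (0.00339).

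**Figure D4:**
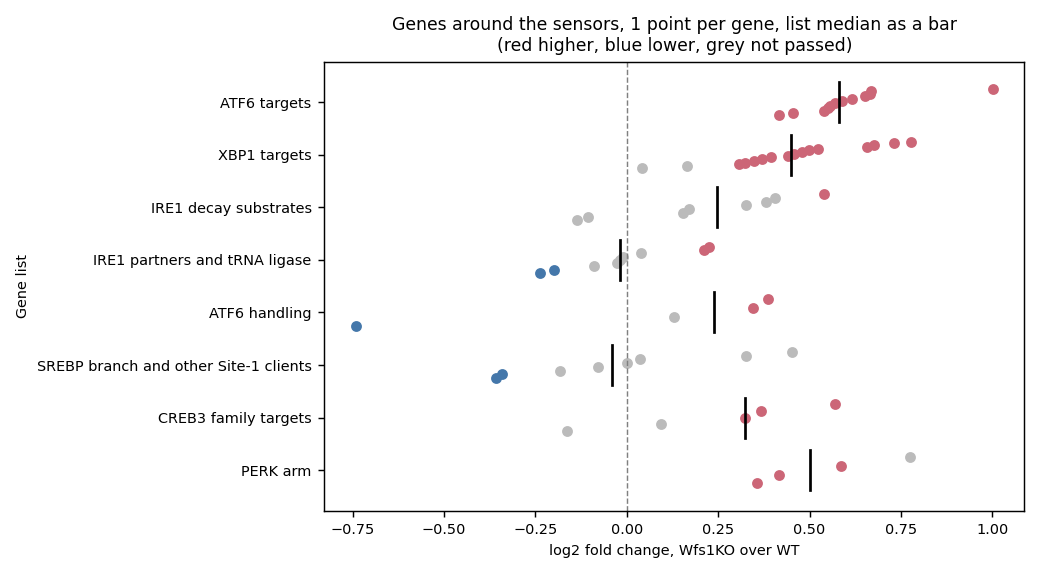
log2 fold change, Wfs1KO over WT (horizontal axis), of each gene in the 8 lists around the sensors, with genes called higher in red, lower in blue and the others in grey, and the list median as a black bar. All 12 ATF6 targets and 14 of 16 XBP1 targets are red, whereas the IRE1 partners and the SREBP branch have points on both sides of 0.

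Levels can be set side by side between genes only per length, here as CPM per kb of the exon length that the deposited table gives for each gene. In WT, Xbp1 led with 139 ± 9.45, followed by Ern1 with 60.7 ± 7.17, Mbtps1 with 42.7 ± 1.80 and Creb3l2 with 42.2 ± 1.99 CPM per kb (SD, n = 4 each). Next came Creb3 with 37.0 ± 2.41, Atf6 with 30.4 ± 1.11, Creb3l1 with 29.96 ± 3.60 and Atf6b with 21.1 ± 1.45 CPM per kb. Mbtps2 stood far lower at 6.51 ± 0.198 and Ern2 at 0.265 ± 0.133 CPM per kb. The ranges of neighbours in this order overlapped for Mbtps1 and Creb3l2 and for Atf6 and Creb3l1, and parted for the others. In Wfs1KO, Xbp1 (149 CPM per kb) and Ern1 (72.1) still led, but Creb3 (45.8), Creb3l2 (44.8), Creb3l1 (41.3), Mbtps1 (39.7) and Atf6 (37.6) formed a run in which each overlapped the next. Creb3l1 thus stood 7th in WT and 5th in Wfs1KO, and Mbtps1 3rd and 6th.

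**Figure D5:**
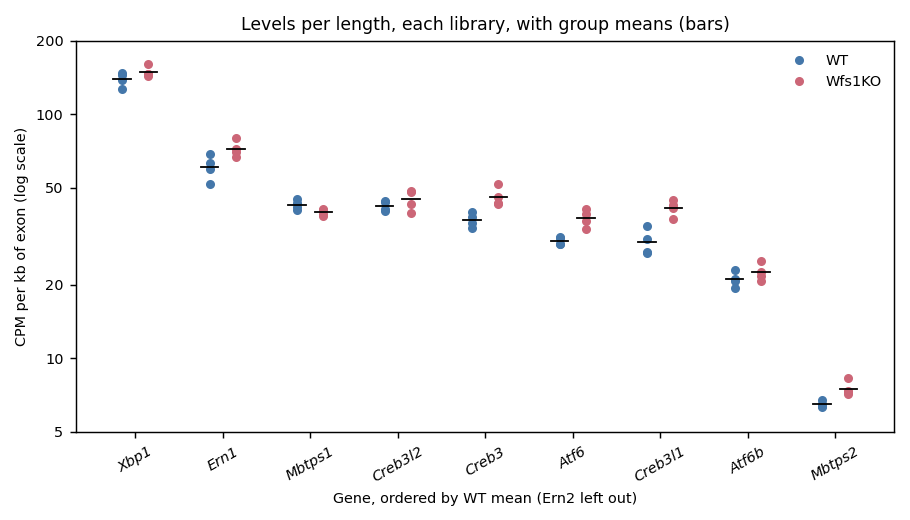
CPM per kb of exon (vertical axis, log scale) of 9 genes in each WT (blue) and Wfs1KO (red) library, ordered by the WT mean, with group means as bars and Ern2 left out because 1 library is at 0. Xbp1 stands highest at 139 in WT and Mbtps2 lowest at 6.51, and the genes between Mbtps1 and Creb3l1 lie closer together in Wfs1KO than in WT.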

How the data were processed

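The submitters' processing notes name bcl2fastq, STAR 2.6.0a, HOMER 4.11.1, DESeq2 and the build mm10. Per the file headers, HOMER counted exon reads of RefSeq genes as raw counts, 1 entry per gene, with no strand option. Shares of exon bases given above are over all GENCODE M21 transcripts of a gene, which can hold more bases than the counted entry. A share may thus differ for the counted bases. The authors' deposited comparison gives log2 fold changes (Wfs1KO over WT in 95 of 95 changes compared with the counts) and p-values.

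Counts were fitted in edgeR 4.0.16 (R 4.3.3) with TMM scaling, filterByExpr by genotype (minimum count 10, minimum total 15; 15733 genes kept), robust quasi-likelihood F-tests and Benjamini-Hochberg adjustment over all tested genes. SE is the size of the log2 fold change over the root of F. Ratios within libraries used exact permutation. Alternatives used DESeq2 1.42.0, limma 3.58.1, other scalings and filters, an acinar covariate, the replicate number as a block and left-out libraries. The members and lists were chosen with earlier results of these data known. Named genes were the members, up to 3 called genes per list by adjusted p, and Eif2ak3, Atf4 and Wfs1, of which Atf4 and Ppp1r15a (log2 fold changes 0.35 and 0.58) complete the PERK arm. Rtraf is 2700060E02Rik in the table, matched through RefSeq synonyms. p-values measure the spread between the islet samples. Same-numbered WT and Wfs1KO samples deviated together (correlations across genes 0.153, 0.443, 0.269 and 0.188), though only replicate 1 correlated best with its own number (2 with 1, 3 with 4, 4 with 3), and the labels do not say what the number marks.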

Additional observations from a re-analysis of the deposited data

Results flagged for a closer look

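In 28 groups of 4 values (10 genes and 4 ratios in 2 genotypes), 4 held a library far from the other 3, by Dixon's gap over range, which chance alone gives in about 1 group in 20. Wfs1KO replicate 4 was high in Xbp1, at 358 CPM against 323 to 327 CPM in the others, and in Mbtps2, at 39.9 CPM against 34.3 to 35.1 CPM. WT replicate 4 had 3.74 counts of Atf6 for each count of Atf6b, against 4.33 to 4.43 in the others, and 6.19 counts of Mbtps1 for each count of Mbtps2, against 5.61 to 5.62.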

How the results depend on the processing

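With the replicate number as a block, no member changed its call in edgeR (Mbtps2 adjusted p = 0.0493, Ern1 0.104), and Ddit3 passed (0.0379). The exact sign-flip test of same-numbered ratio differences cannot go below 0.125, so 0 of the 3 ratios passed. With a library left out the smallest two-sided exact p is 0.0571, and 0 ratios passed. In splits chosen after the data were seen, replicates 1 and 2 alone gave 2 members called, 5 decay substrates, 1 IRE1 partner, Creb3l2 at -0.066, Derl2 at -0.11 and Col1a1 at 0.75 (adjusted p = 0.00695). Replicates 3 and 4 alone gave 2 members, 2 partners and 1846 genes called, against 2970 in all 8 libraries. Total exon scaling gave 3171 genes higher and 708 lower (1635 and 1335 with TMM), 4 decay substrates and 2 partners. Partners numbered 2 with no filter and 2 with the acinar covariate. Leaving out each library in turn gave 1 to 4 decay substrates, 1 to 3 partners and Col1a1 from -0.39 to 0.39. The causes were not tested. Every other alternative kept these list counts within 1.5 times. Ern2 had 0 to 30 counts per library, the fewest of the members.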
